A study of Drosophila melanogaster with 8 samples.

Results

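The cytosolic ribosomal protein genes are the genes that encode the protein part of the ribosome outside mitochondria. They were taken as every identifier whose FlyBase symbol begins with RpL (large subunit) or RpS (small subunit), together with sta, the fly gene for a small subunit protein whose symbol does not follow that pattern. This gave 93 of 13932 identifiers, 54 of the large and 39 of the small subunit, spread over all major chromosome arms. Polyadenylated RNA was sequenced from Drosophila melanogaster S2R+ cells, a cultured line of hemocyte (blood cell) origin labelled wild type, and from a line that the submitters' labels call STAT92E mutant. Both lines received either control media or the upd ligand for 1 hour before harvest, which gives 4 groups with 2 libraries each. Upd (Unpaired) is the secreted ligand that activates the kinase Hopscotch and, through it, the transcription factor Stat92E. The labels state neither how the mutation was made nor whether the mutant line is a single clone. The labels do not say that replicates came from separate cultures, so every p-value measures the spread between libraries, which may be technical.

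A ribosome carries a single copy of nearly every ribosomal protein, and cells make these proteins in matched amounts, so their messages are usually among the most abundant and vary together. In Drosophila most of these genes start transcription within a pyrimidine-rich initiator, and losing a copy of many of them gives the Minute phenotype of slow growth and thin bristles. Some have duplicate copies (paralogs), and several of these, among them RpS5b, RpS10a, RpS19b and RpL22-like, are best known from the fly germline.

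Gene counts per library ranged from 8285533 to 30352948, and both shallow libraries were replicate 1 of the wild-type line. Transcripts of the mitochondrial genome took between 12.84% and 22.1% of the counts. Stat92E itself was at 157 to 178 CPM (counts scaled to the TMM-normalised library size) in the wild-type libraries and at 103 to 121 CPM in the mutant libraries, so its transcript was present in both lines. Of 12 hemocyte markers, 7 had a median of at least 1 RPKM (the authors' length-normalised read value). Croquemort (crq) and Fer1HCH were high in both lines. Col4a1 was at 50 to 93 RPKM in the wild-type libraries and at most 0.205 RPKM in the mutant ones. The mature hemocyte genes NimC1, eater and He stayed below 0.266 RPKM throughout. Of the 9 hemocyte markers with enough counts to test, 8 had a lower fitted level in the mutant line in each medium. In edgeR after Benjamini-Hochberg adjustment, 4 of the 9 were lower and 0 higher in each medium. Of all genes, 5.7% were lower in control media and 6.53% with upd. Of 7 germline markers, 5 had a median of at least 1 RPKM, while vas, a defining germline gene, did not exceed 0.235 RPKM. Muscle, neuron and fat body marker lists summed to at most 1.94, 5.004 and 1.30 RPKM in any library.

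Most ribosomal protein messages were among the most abundant in the cells. The filter on low counts kept 89 of the 93 genes, 52 large and 37 small, among 8126 genes tested. The median RPKM of these 89 was 940.8, with quartiles of 484 and 1873, against 11.65 over all genes tested. Of 74 genes at or above 1000 RPKM in the tables, 41 were ribosomal protein genes. The large subunit had a median of 894.2 RPKM and the small subunit 972.8 RPKM, and their quartile ranges overlapped.

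Per gene length, the acidic stalk protein RpLP1 had the highest level. In the wild-type libraries it was at 4949 and 5443 RPKM without upd and 5829 and 6889 RPKM with it. In the mutant libraries it was at 5370 and 5733 RPKM without and 5569 and 5628 RPKM with it. RpL10, which joins the large subunit late in its assembly, followed with a median of 4587 RPKM, and RpS15Aa with 4504 RPKM; the library ranges of these 3 genes overlapped. The other stalk proteins were lower, RpLP2 at a median of 1344 RPKM and RpLP0, the base of the stalk, at 870.9 RPKM. RpL5 and RpL11, which carry the 5S rRNA into the ribosome and in mammals bind the p53 regulator Mdm2, were at 1873 and 511.9 RPKM. The ubiquitin fusion genes RpL40 and RpS27A were at 1767 and 2535 RPKM. In the small subunit, RpS3, at the mRNA entry site, was at 1820 RPKM, RpS6, a substrate of S6 kinase, at 829.5 RPKM, and sta at 677.2 RPKM. At the other end, RpL22-like had a median of 0.451 RPKM, RpL37-2 0.513 RPKM and RpS10a 5.34 RPKM. RpL22 was the lowest of the genes that are the main copy of their set, at 49.2 RPKM.

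**Figure D1:**
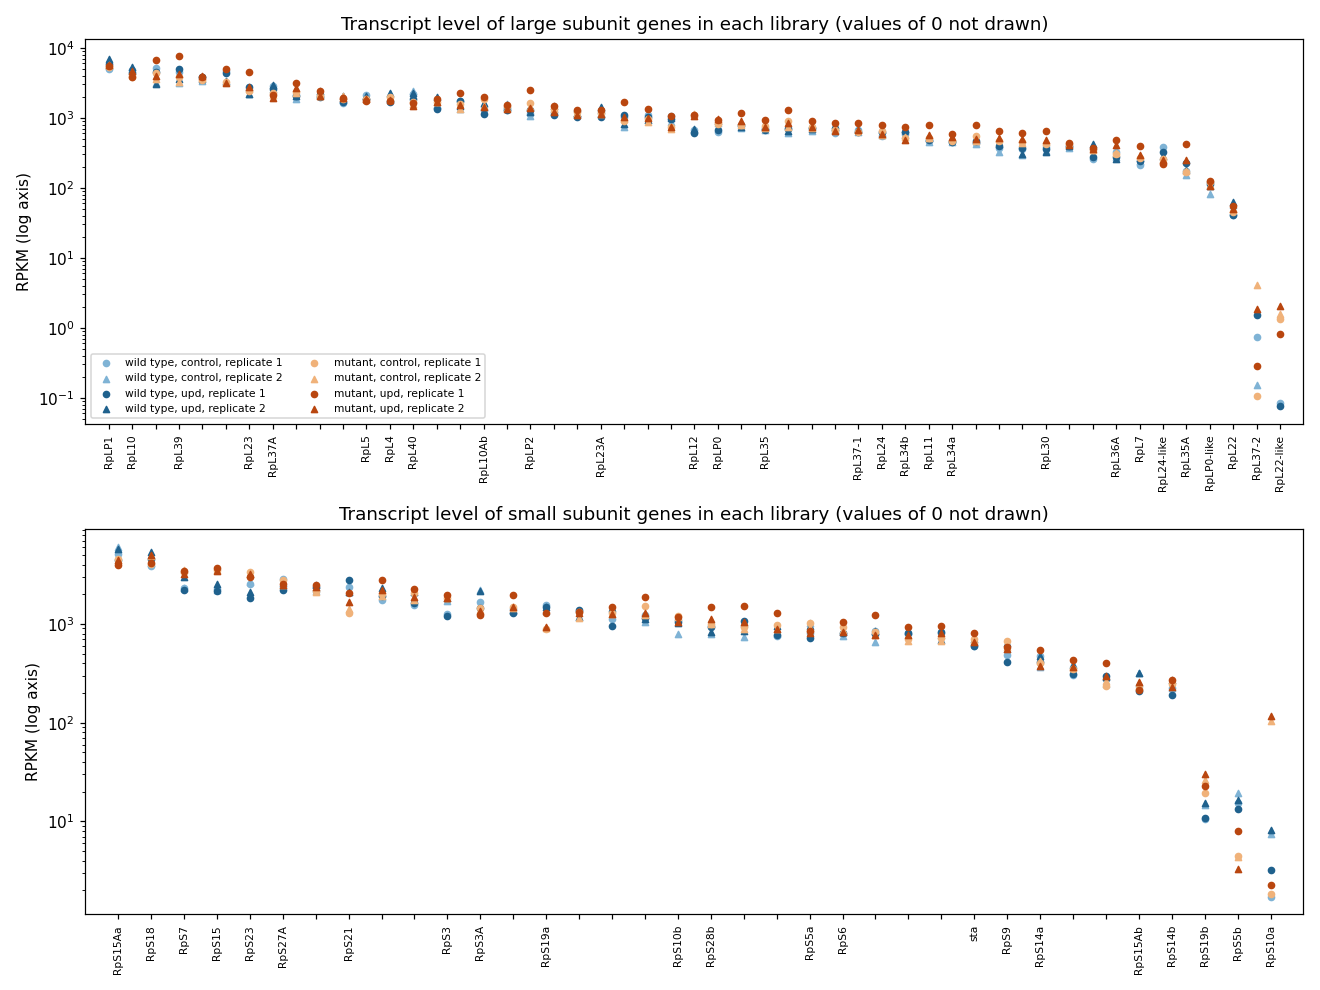
Level of tested ribosomal protein genes in each library (RPKM, log axis), with large subunit genes above and small subunit genes below, ordered by median and labelled where the text names them; circles are replicate 1 and triangles replicate 2. Most genes lie within a narrow band of libraries at or above 100 RPKM, while RpL22-like, RpL37-2, RpS19b, RpS5b and RpS10a lie far below, RpS10a with the widest spread.

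A few members could not be tested. RpL10Aa and RpL7-like had 0 counts in every library, and RpL7-like shares 98.77% of its exon bases on the same strand with CG34164, so reads there could have been assigned to neither. RpS28-like had 2 counts in 1 wild-type and 2 in 1 mutant library, both with upd. RpS28a had 3 counts in 1 wild-type and 2 in 1 mutant library, again with upd. The floor of 3 counts corresponded to 0.0961 to 0.379 CPM in single libraries.

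Together the 93 genes took 12.2% and 11.7% of gene counts in wild-type control media, 11.8% and 12.4% with upd, 11.9% and 11.8% in mutant control media, and 14.01% and 12.4% in mutant cells with upd. A single library, mutant with upd replicate 1, stood above the others, and the rest lay within 1 percentage point of each other. Large subunit genes supplied between 7.03% and 8.54% of the counts and small subunit genes between 4.54% and 5.47%. The ratio of large to small subunit counts was 1.62 and 1.61 in the wild-type libraries of replicate 1 and 1.51 in both of replicate 2. Mutant libraries had 1.46 and 1.48 without upd, and 1.56 and 1.48 with it. The libraries with the larger ratios, those of wild-type replicate 1 and mutant with upd replicate 1, were also those with the largest mitochondrial shares, 20.2%, 22.1% and 19.1%; its part in the ratio was not tested. In bulk libraries a change in RNA per cell and a change in the mix of cells cannot be told apart. These shares and ratios are given as a description and were not tested.

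**Figure D2:**
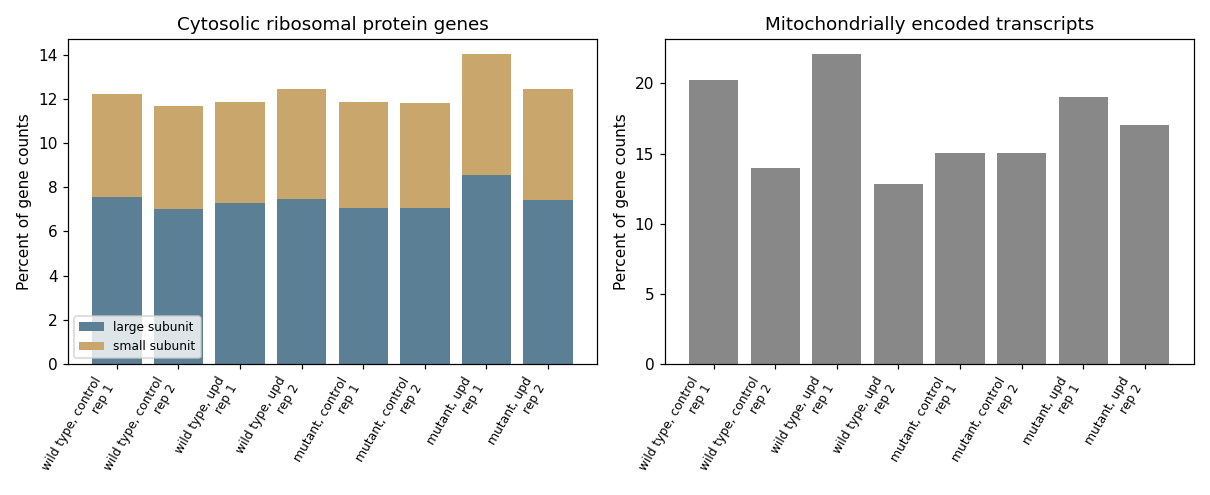
Percent of all gene counts held by ribosomal protein genes in each library (left, large subunit in blue and small subunit in tan) and by mitochondrially encoded transcripts (right). The ribosomal protein bar of mutant with upd replicate 1 reaches 14.01%, and the other 7 lie between 11.7% and 12.4%.

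In wild-type cells, 1 hour of upd came with small differences in ribosomal protein messages, and no gene passed the test. The median log2 difference of the 89 genes was 0.12, 0.12 in the large and 0.11 in the small subunit, against 0.00 over all genes tested. Of the 89, 74 had a difference above 0, where 50.3% of all genes did. In edgeR's quasi-likelihood test with Benjamini-Hochberg adjustment 0 members and 0% of all genes passed an adjusted p of 0.05; at an unadjusted p below 0.05 edgeR gave 2 members, both higher (1.08% of all genes were higher and 0.738% lower), and DESeq2 called 0 members after adjustment (background 0.123% higher and 0% lower). Both upd libraries exceeded both control libraries for 16 members (background 12.1%) and lay below them for 5 (background 12.3%).

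RpS18, a protein of the small subunit head, was among the 3 members with the largest differences. Its upd libraries were at 3549 and 3502 CPM and its control libraries at 2828 and 2590 CPM, so the groups did not overlap. Its log2 difference was 0.38 ± 0.17 (standard error; edgeR, adjusted p = 1). RpLP1 was at 5818 and 5684 CPM with upd, against 4618 and 4311 CPM without, a log2 difference of 0.37 ± 0.16 (edgeR, adjusted p = 1). RpS23, a protein of the decoding centre, ran the other way. With upd it was at 2060 and 1962 CPM, against 2642 and 2393 CPM without, again with no overlap, with a log2 difference of -0.32 ± 0.15 (edgeR, adjusted p = 1). The other extremes were RpL35A at 0.40 ± 0.30 and RpS5b at -0.14 ± 0.38. RpL37-2, with at most 7 counts in any wild-type library, had 0.87 ± 2.30. Leaving out a control library moved the median over members to 0.00 (replicate 2 left out) or 0.28 (replicate 1 left out). Quantile normalization with limma, which makes all libraries share 1 distribution of values, moved it to 0.0046.

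In mutant cells, nearly every ribosomal protein message had a higher fitted level with upd, but no gene passed the test of the 4 group means and 1 library carried most of the difference. That test did not model replicate numbers, whose meaning the labels do not give. A fit with a replicate block within each line, in which members did pass, is described in the closing section with its limits. Of the 89 genes, 87 had a log2 difference above 0, where 50% of all genes did. The median was 0.35, with 0.35 in the large and 0.32 in the small subunit, against 0.00 over all genes. Both upd libraries exceeded both control libraries for 57 members (background 18%) and lay below them for 0 members (background 19%). In edgeR's quasi-likelihood test 0 members and 0% of all genes passed after Benjamini-Hochberg adjustment, 17 members had an unadjusted p below 0.05, all of them higher (2.29% of all genes and 6.56% of genes under 1000 bases were higher at that p), and DESeq2 called 0 members (background 0.0123% in each direction). The median was 0.12 when mutant replicate 1 with upd was left out, and 0.0972 after quantile normalization with limma.

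RpL35A, a large subunit protein whose human gene is mutated in some cases of Diamond-Blackfan anaemia, had the largest difference. With upd it was at 324.6 and 177.9 CPM, against 111.3 and 112.2 CPM in the mutant control libraries. The upd libraries lay above both control libraries and far from each other, and the log2 difference was 1.17 ± 0.30 (edgeR, adjusted p = 0.992). RpL39, one of the shortest ribosomal proteins, was at 2726 and 1381 CPM with upd, against 1190 and 964 CPM without, a log2 difference of 0.93 ± 0.38. RpL23 was at 3040 and 1709 CPM with upd, against 1414 and 1453 CPM without, a log2 difference of 0.73 ± 0.30. For all 3 genes replicate 1 with upd was the highest of the 8 libraries, and without it the log2 differences were 0.67 for RpL35A, 0.36 for RpL39 and 0.25 for RpL23. RpL36A followed at 0.72 ± 0.22. The ones that stood nearest to or below 0 were RpL4 at 0.02 ± 0.16, RpS5a at -0.05 ± 0.16 and RpL37-2 at -0.73 ± 1.66.

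The libraries of equal replicate number show how uneven this was. Between wild-type libraries of replicate 1 the median log2 ratio of upd to control media was 0.06, with 60 of 89 members above 0, and between those of replicate 2 it was 0.15, with 78 above 0. Between mutant libraries of replicate 1 it was 0.49, with 85 above 0, and between those of replicate 2 it was 0.17, with 82 above 0. In mutant replicate 1 the large subunit median was 0.54 and the small subunit median 0.44, and 5 members differed by more than 2-fold. The other pairs had 0 such members, and their subunit medians lay within 0.02 of each other. Of 8126 genes tested, 569 differed by more than 2-fold in mutant replicate 1 and 431 in mutant replicate 2. In wild-type replicates 1 and 2 it was 549 and 255 genes. Mitochondrially encoded transcripts had medians of 0.32 and -0.04 in the wild-type pairs and 0.83 and 0.43 in the mutant pairs, so they too were highest in mutant replicate 1; their part in the result was not tested.

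**Figure D3:**
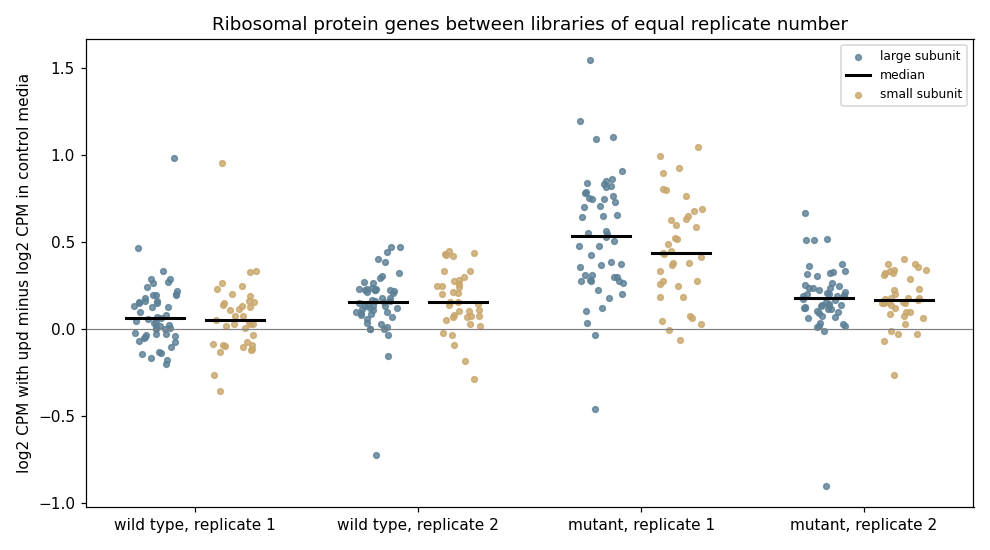
Log2 ratio of CPM with upd to CPM in control media for the 89 tested genes, between libraries of equal replicate number, with large subunit genes in blue, small subunit genes in tan and medians as black bars. The medians of mutant replicate 1 stand at 0.54 and 0.44, and those of the other 3 pairs between 0.05 and 0.18.

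Ribosomal protein genes are short, and short genes of other kinds were also higher in that pair. In mutant replicate 1 the 24 members under 650 bases had a median log2 ratio of 0.65, and the 344 other genes of that length 0.44. For the 33 members from 650 to under 1000 bases the median was 0.38, against 0.20 in 818 other genes, and for the 32 members of 1000 bases or more it was 0.43, against -0.04 in 6875 other genes. In mutant replicate 2 the 3 member medians were 0.23, 0.15 and 0.14, and those of the other genes 0.11, 0.04 and -0.01. In the wild-type pairs the member medians lay between 0.02 and 0.21 and those of other genes between -0.04 and 0.12. Members had the higher median in all 12 of these classes, and the gap to other genes of like length was widest among long genes of mutant replicate 1. The part of gene length in the result was not tested.

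**Figure D4:**
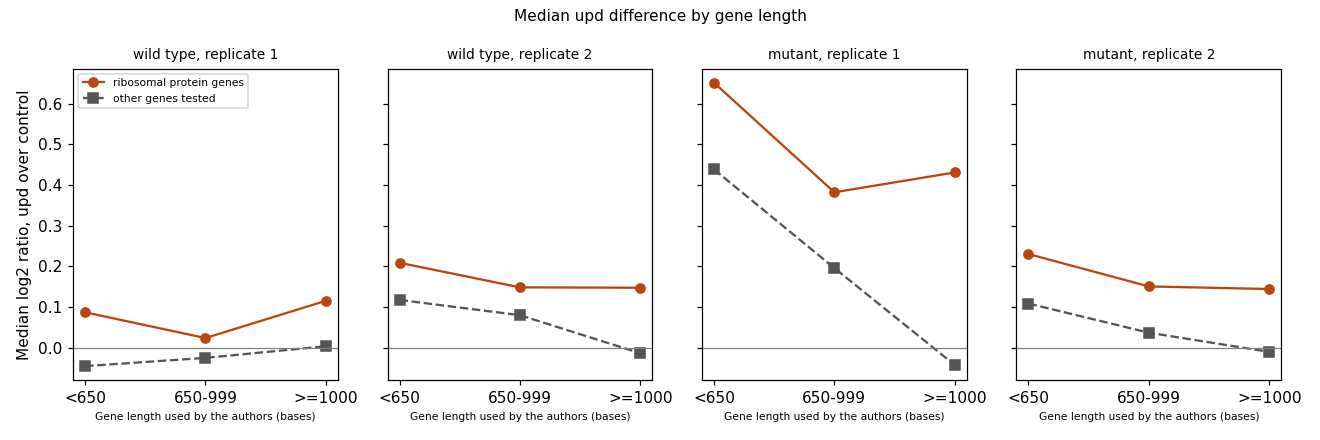
Median log2 ratio of upd to control media by gene length class (bases, as the authors used for RPKM) in the 4 pairs of libraries, with ribosomal protein genes as orange circles and the other tested genes as grey squares. In mutant replicate 1 both lines are highest under 650 bases, at 0.65 and 0.44, and only the ribosomal protein genes stay high at 1000 bases or more, at 0.43.

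The difference of the upd responses between the lines (wild type minus mutant) was tested directly as an interaction term, and 0 members passed (edgeR with Benjamini-Hochberg adjustment; background 0%). At an unadjusted p below 0.05 edgeR gave 1 member, RpL36A (lower, as were 0.554% of all genes), and DESeq2 called 0 (background 0.0123% higher and 0% lower). The median over members was -0.20, with 11 of 89 above 0 where 49.8% of all genes were. RpL36A was at 206.3 and 144.1 CPM in the wild-type line without upd and 182.6 and 140.6 CPM with it. In the mutant line it was at 165.5 and 167.1 CPM without and 310.2 and 238.3 CPM with it. Its libraries separated by medium in the mutant and overlapped in the wild type, and the interaction was -0.84 ± 0.31 (edgeR, adjusted p = 1). RpL35A had -0.77 ± 0.43 and RpS5b -0.70 ± 0.55, and at the other end stood RpL37-2 (1.60 ± 2.84), RpLP1 (0.17 ± 0.23) and RpS18 (0.16 ± 0.23). Leaving out mutant replicate 1 with upd moved the median to -0.04 and the RpS5b value to 0.18.

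Between the lines in control media, the ribosomal protein genes as a group stood level and only 3 passed the test. The median log2 difference of mutant to wild type was -0.01, with 43 of 89 above 0 where 50.6% of all genes were. In edgeR's test after Benjamini-Hochberg adjustment 2 members were higher and 1 lower in the mutant, where 3.27% and 5.7% of all genes were (8.97% in either direction), so the share of members called did not exceed that of genes in general. DESeq2 called 4 members higher and 6 lower (background 5.37% and 8.64%). Both mutant libraries exceeded both wild-type libraries for 14 members (background 28.2%) and lay below them for 19 (background 28.1%).

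RpL22-like, the paralog of RpL22 known from the male germline, was nearly absent from the wild-type line. It had 1 and 0 counts in wild-type control media and 37 and 33 in mutant control media, a ratio of 72.0 after scaling by library size (95% interval 12.5 to 2880, counting error only). It rose in the mutant, with an adjusted p of 0.0334 in edgeR, to no more than 2.01 CPM. RpS5b, the paralog of RpS5a known from the female germline (chromosome 3R, 14900432 to 14901563 in the BDGP6 assembly), ran the other way. It was at 17.7 and 19.0 CPM in wild-type control media and 4.59 and 4.33 CPM in mutant control media, and its log2 difference was -2.04 ± 0.40 (edgeR, adjusted p = 0.0159). RpL12, a protein at the base of the stalk, was at 889.1 and 749.1 CPM in wild-type control media and 1295 and 1280 CPM in the mutant, a log2 difference of 0.65 ± 0.16 (edgeR, adjusted p = 0.0360). In these 3 genes the groups did not overlap. The calls of these genes were lost without any 1 of the 4 control-media libraries. That of RpL12 was also lost without either wild-type library with upd. Over all libraries left out singly, the log2 differences were 3.83 to 8.35 for RpL22-like, -2.09 to -1.98 for RpS5b and 0.538 to 0.775 for RpL12.

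The next members did not pass. RpS19a and RpS21 had lower levels in the mutant, without overlap between the lines, at log2 differences of -0.78 ± 0.24 (edgeR, adjusted p = 0.0791) and -0.83 ± 0.26 (edgeR, adjusted p = 0.0898). RpS21 was at 2074 and 1567 CPM in wild-type and 999.1 and 1043 CPM in mutant control media. RpS19a passed without either mutant library with upd (edgeR, adjusted p = 0.0424 and 0.0427), which enter the fit only through the shared spread. RpL40 had -0.59 ± 0.16 (edgeR, adjusted p = 0.0534). RpS10a had 3.31 ± 1.79 and RpL37-2 2.41 ± 2.02, both through a single mutant library.

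**Figure D5:**
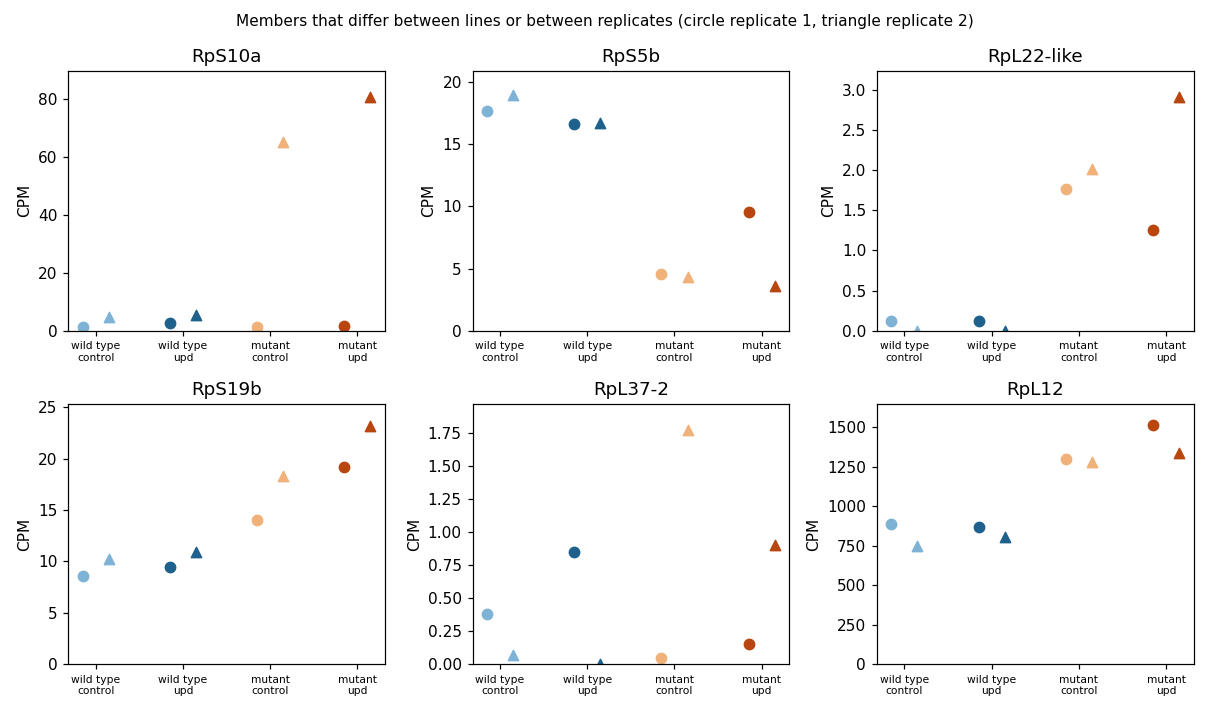
CPM in each library for 6 members named between lines or between replicates, grouped by line and medium, circles for replicate 1 and triangles for replicate 2. RpS5b lies at 16.6 to 19.0 CPM in the wild-type libraries and at 3.59 to 9.58 CPM in the mutant ones, and RpS10a exceeds 60 CPM in both mutant libraries of replicate 2 only.

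With upd in both lines, the mutant line had higher levels of 5 members and lower levels of 0 members (edgeR, Benjamini-Hochberg adjusted), where 3.99% and 6.53% of all genes passed. At an unadjusted p below 0.05, edgeR gave 16 members higher and 3 lower (12.1% and 14.2% of all genes), and DESeq2 called 8 higher and 1 lower after adjustment (background 5.92% and 9.51%); edgeR's background in either direction was 10.5%. The median over members was 0.20, with 73 of 89 above 0 where 51.9% of all genes were, and it was -0.02 when mutant replicate 1 with upd was left out. Both mutant libraries exceeded both wild-type libraries for 22 members (background 26.8%) and lay below them for 11 (background 26.4%).

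RpL22-like had 1 and 0 counts in wild-type cells with upd and 25 and 68 in mutant cells, a ratio of 85.0 (95% interval 14.9 to 3390), with an adjusted p of 0.0264 in edgeR. RpS19b, the germline-enriched paralog of RpS19a (chromosome 3R, 23932729 to 23933530), was at 9.45 and 10.95 CPM in the wild type and 19.15 and 23.1 CPM in the mutant, a log2 difference of 1.04 ± 0.23 (edgeR, adjusted p = 0.0235). RpL12 was at 865.6 and 807.0 CPM against 1514 and 1337 CPM, a log2 difference of 0.77 ± 0.16 (edgeR, adjusted p = 0.0180). All of the mutant libraries lay above all of the wild-type libraries for these genes. RpS23 was at 2060 and 1962 CPM against 3246 and 3185 CPM, a log2 difference of 0.68 ± 0.15 (edgeR, adjusted p = 0.0274). RpS15, a protein of the small subunit head, was at 2019 and 1964 CPM against 3350 and 2845 CPM, a log2 difference of 0.64 ± 0.17 (edgeR, adjusted p = 0.0481). RpS5b had -1.34 ± 0.39 (edgeR, adjusted p = 0.0638), RpS3A -0.43 ± 0.17 and RpL37A -0.42 ± 0.19, and none of the 3 passed.

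Each of these 5 calls was lost without some single library. RpL22-like lost it without replicate 2 of either group with upd (edgeR, adjusted p = 0.193 and 0.0767), and RpS19b without either wild-type library or mutant replicate 2 (0.0852 to 0.115). RpL12 lost it without either wild-type library or mutant replicate 1 (0.0646 to 0.111). RpS23 lost it without any 1 of the 4 upd libraries (0.0707 to 0.144) or either mutant library in control media (0.0577 and 0.0578), and RpS15 without any 1 of the 8 (0.0561 to 0.196).

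Of the 5 genes, RpL22-like, RpL12, RpS23 and RpS15 lie on arm 2R, which was noticed after their values were seen. The 21 tested members on 2R had a median log2 difference of 0.49 between the lines with upd, with 19 above 0, where 1633 other genes on that arm had 0.02. The medians of members on the other large arms were 0.08 on 2L, 0.25 on 3L, 0.20 on 3R and 0.11 on X. Above 0 were 11 of 17 members on 2L, 13 of 14 on 3L, 17 of 21 on 3R and 13 of 15 on X. The share of all genes called on each arm was not taken. In control media the 21 members on 2R had a median of 0.01. The upd response of members in the mutant had medians of 0.38 on 2R, 0.38 on 3R, 0.35 on 2L, 0.31 on 3L and 0.27 on X. Without mutant replicate 1 with upd, the median between lines with upd over all members was -0.02. Medians by arm were not taken without that library. The 4 called genes are among the members that give the median of 0.49, and neither the arm nor the difference between media was tested.

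Paralogs were compared by their share of the RPKM of their set. In 7 of the sets nearly all of the message came from 1 copy: RpL10Ab, RpL7 and RpS28b took close to 100% in every library, RpL37-1 at least 99.4%, RpL22 at least 95.97%, RpS19a at least 96.84% and RpS5a at least 98.15%. RpL34a and RpL34b were nearly even, with mean shares of 45.6% and 54.4%, and RpS14a and RpS14b took 64.2% and 35.8%. RpS14a and RpS14b are neighbouring near-identical copies, so how the authors' counting split their reads is uncertain. RpS15Ab took 4.99% beside RpS15Aa. RpL24-like and RpLP0-like, related to the yeast assembly factors Rlp24 and Mrt4 rather than to parts of the finished ribosome, took 31.1% of the RpL24 and 11.97% of the RpLP0 set.

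The shares that changed between lines were those of minor copies. RpS5b took 1.85% in both libraries of wild-type control media and 1.83% and 1.67% with upd, and 0.436% and 0.483% in mutant control media and 0.945% and 0.410% with upd. RpS19b took 0.680% to 1.09% in the wild-type libraries and 1.74% to 3.16% in the mutant libraries. RpL22-like took at most 0.207% of its set in the wild type and 1.45% to 4.03% in the mutant. Wild-type and mutant libraries did not overlap in any of these 3 shares, and they moved in different directions. RpL22, the main copy of its set, was at 54.5 to 75.1 CPM in the wild type and 52.6 to 76.7 CPM in the mutant. Over the same libraries the germline gene bam was at 16.9 to 19.9 RPKM in the wild type and 0.504 to 2.62 RPKM in the mutant. The germline gene bgcn ran the other way, at 15.4 to 20.9 RPKM in the wild type and 24.6 to 34.2 RPKM in the mutant. In either medium, edgeR called 1 germline marker higher and 1 lower in the mutant after adjustment. The summed RPKM of the 7 germline markers overlapped, at 121.5 to 198.1 in the wild type and 137.4 to 182.3 in the mutant. The part of these markers in the paralog differences was not tested.

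RpS10a (chromosome 3R, 27652760 to 27653363) differed more between replicates of the mutant line than between any groups. In the wild-type line it was at 1.26 and 4.63 CPM without upd and 2.54 and 5.35 CPM with it. In the mutant line it was at 1.20 and 65.1 CPM without and 1.71 and 80.6 CPM with it. Both mutant libraries of replicate 2 were high, both of replicate 1 were within the wild-type range or just below it, and this held in both media. The log2 ratio of replicate 2 to replicate 1 was 5.65 in control media and 5.48 with upd. RpS10a took 8.17% and 10.02% of the RpS10 set in those libraries and at most 0.926% in the others, while RpS10b stayed between 1204 and 2139 CPM. Of 8126 genes tested, 3 were higher and 1 lower by more than 5 on the log2 scale in mutant replicate 2 in both media, and 256 were higher and 92 lower by more than 1 in both (4.28% together). Among these, RpS10a and RpL37-2 were the members.

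RpL37-2 had 3, 2, 7 and 0 counts in the wild-type libraries, in the order control media replicates 1 and 2 and upd replicates 1 and 2. In the mutant libraries it had 1, 29, 3 and 21 counts in that order. In the mutant replicate 2 was the higher for RpL37-2, as for RpS10a. In the wild type replicate 2 was the lower for RpL37-2 and the higher for RpS10a (log2 ratios of 1.79 and 1.04 for RpS10a).

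Across the 8 libraries the median pairwise Pearson correlation of log2 CPM among the 89 genes was 0.534, a description over libraries that share line, medium and depth. RpL37-1 and RpL35 followed the other members most closely, with mean correlations of 0.649 and 0.645. RpS10a (-0.231), RpS3A (-0.166), RpS15Ab (-0.117) and RpS15Aa (-0.115) did not follow them. RpS3A was at 2521 to 3093 CPM in the wild-type libraries and 1933 to 2104 CPM in the mutant libraries.

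Lists of genes related to the ribosome were counted for comparison. Of 29 measured genes on a list named for ribosome biogenesis, 0 passed with upd in either line. Their median log2 difference was 0.14 in the wild type and 0.11 in the mutant (25 and 18 of 29 above 0). That list also holds genes with other roles, such as Rrp1 and Myc. Of 15 genes on a list named for translation factors with pyrimidine-rich messages, 0 passed with upd, at medians of 0.09 and 0.03. This list also holds genes of other kinds, such as Nap1 and bic, and the message type of its genes was not checked here. Of 71 tested mitochondrial ribosomal protein genes 0 passed with upd, at medians of 0.03 and 0.15. The cytosolic ribosomal protein medians beside these were 0.12 and 0.35, and the differences between lists were not tested. In the wild type and mutant, the unadjusted p in edgeR was below 0.05 for 0 and 2 genes of the biogenesis list. It was below 0.05 for 0 and 0 genes of the translation factor list, and for 1 and 1 mitochondrial ribosomal protein genes. Between the lines, 2 mitochondrial ribosomal protein genes were higher in the mutant in each medium and 1 was lower with upd. From the biogenesis list 1 gene was lower with upd. From the translation factor list 1 and 2 genes were lower in control media and with upd. Of all genes, 3.27% were higher and 5.7% lower in control media, and 3.99% and 6.53% with upd.

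Counting could blur some of these genes. Exon bases were shared with another gene on the same strand in 6 members and on the opposite strand in 25, and 63 shared none. RpS9 shared 50.29% of its exon bases with an antisense RNA and RpL30 25.12% with CG31793, and the sources do not say whether the authors' counting used strand. RpL22 shared 34.27% with a lncRNA on its own strand and RpL23A 31.87% with the snoRNA host gene Uhg7. RpL12 and RpL39 are neighbours that overlap by 8 bases on opposite strands. Introns and exons of 29 members held 76 snoRNA genes, 14 of them in RpS5a and 7 in RpS7. RpS10a, RpS5b, RpS19b, RpL22-like, RpL37-2, RpL35A and RpS23 shared no exon base with another gene.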

How the data were processed

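The deposited tables, 1 per library, hold whole-number counts, gene lengths and RPKM for 13932 FlyBase identifiers. The authors made the RPKM values from the deposited counts and lengths, as dividing them gives 1 constant per library. Per the submitters' processing notes, Trimmomatic 0.36 and STAR 2.5.2b were used with dm6; the sources name no counter and no strand setting. Symbols and coordinates came from Ensembl release 115 (BDGP6), which named 13852 identifiers.

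The counts were tested with edgeR 4.0.16 (R 4.3.3), as the plan foresaw for count tables: TMM scaling, filterByExpr, 4 group means over 8 libraries, the quasi-likelihood test, two-sided, with Benjamini-Hochberg adjustment over 8126 genes. This left 4 residual degrees of freedom, and the median biological coefficient of variation was 17.8%. An adjusted p of 0.05 was the threshold. CPM used the scaled library sizes, and ratios between libraries a prior count of 2. The detection floor was 3 counts; intervals and floors cover counting error only. A fit with the same code was tested on simulated data. Levels between genes were compared as RPKM.

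Alternatives were DESeq2 1.42.0, limma 3.58.1 on quantile-normalised log2 RPKM (pseudocounts 1 and 0.1), RLE and upper-quartile scaling, no filter, no mitochondrially encoded transcripts, replicate blocks and leaving out each library; TMM factors without the members were added after seeing the data. The members and all lists were chosen with earlier results of these data known. Named were the 3 largest and 3 smallest log2 differences of each comparison, paralog sets, the 3 highest and 3 lowest median RPKM, and sta, RpS3, RpS6, RpL5, RpL11, RpLP0, RpLP1, RpLP2, RpL40 and RpS27A. Called genes, and others named beside them, were chosen after their values were seen. Sequences and promoter motifs were not analysed here, and single results that the rule would name are not reported here.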

Additional observations from a re-analysis of the deposited data

Results flagged for a closer look

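For 4 of the members reported here, both wild-type pairs of libraries with equal replicate number were lower with upd and both mutant pairs were higher. The log2 response of the wild type minus that of the mutant was -0.838 for RpL36A, -0.434 for RpS23, -0.201 for RpL40 and -0.149 for RpS15Aa. The interaction term of edgeR did not pass for any of the 4 (adjusted p = 1 each, 8 libraries, 4 group means). With a replicate block within each line, which models these pairs, edgeR gave RpL36A -0.81 and an adjusted p of 0.00517. RpL36A had log2 ratios of -0.18 and -0.04 in the wild-type pairs and 0.91 and 0.51 in the mutant pairs. RpS23, at -0.36 and -0.29 against 0.06 and 0.16, lay farther from 0 in the wild-type pairs. RpL40 and RpS15Aa lay within 0.18 of 0 in every pair. The median of all members was above 0 in every pair. That these 4 stood below it in wild-type cells follows from how they were chosen.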

How the results depend on the processing

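In mutant cells with upd, 2 members, RpL35A and RpL39, passed without the filter on low counts. A replicate block within each line gave 40 higher (3.85% of all genes), 1 higher in wild-type cells (1.22%) and 1 lower, RpL36A, for the difference between lines (0.123%). Deviations of equal replicate numbers correlated at 0.485 and 0.514 over all genes within a line (0.822 and 0.902 over members), and at -0.0595 to 0.0605 across lines. The member values include RpS10a (log2 5.65 and 5.48 in the mutant) and RpL37-2 (-1.53 and -3.23 in the wild type), which lay far from the rest. In each group 2 to 4 of the 89 members differed by more than 2-fold between replicates, where 644 to 906 of 8126 genes did. The correlation of members without those that differed by more than 2-fold was not taken. The labels do not say what a number marks, and 2 pairs per comparison are too few to decide. Between lines in control media, DESeq2, no filter, quantile-normalised limma (pseudocount 1) and a 1-term block gave 4, 5, 4 and 4 higher and 6, 4, 3 and 5 lower, and leaving out mitochondrially encoded transcripts 2 lower. With upd the same 4 gave 8, 15, 3 and 15 higher and 1, 1, 2 and 1 lower, and a pseudocount of 0.1 gave 2 higher. Among all genes, the 1-term block called 7.45% higher and 9.61% lower between lines given upd. Between lines without upd it called 6.5% higher and 8.85% lower. The counts of members without the filter and from limma have no such share beside them here. Leaving out 1 library gave 0 to 2 higher and 0 to 2 lower in control media, and 0 to 5 higher and 0 to 1 lower with upd.

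The median for mutant cells with upd was 0.0972 and 0.0973 after quantile normalization (0.0046 for wild-type cells), and 0.122 to 0.491 over libraries left out. That between lines with upd was -0.0184 to 0.368. Without mitochondrially encoded transcripts in the total, members held 14.4% and 14.7% of counts in the wild type (control media and upd) and 13.95% and 16.2% in the mutant.

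Direction turned in few named members, none of them called in that comparison in the main fit. RpS10a was called higher in the mutant by an alternative fit in each medium, though its high values came from mutant replicate 2 only. RpL4 in mutant cells with upd was -0.249 in both quantile fits, and RpL37-2 there 0.0483 with the pseudocount of 0.1. Leaving out single libraries gave ranges across 0 for low or level members. For upd in the wild type, RpL37-2 ranged from -4.89 to 2.30. In the mutant the ranges were -2.50 to 3.31 for RpL37-2, -0.0208 to 0.0628 for RpL4 and -0.163 to 0.0724 for RpS5a. For the difference between lines they were -4.15 to 3.35 for RpL37-2 and -1.24 to 0.177 for RpS5b. Between lines RpS10a ranged from -1.44 to 4.70 in control media and from -1.29 to 4.25 with upd, and RpL37-2 from -1.68 to 3.64 in control media. In RpS10a the negative values came from leaving out mutant replicate 2 of the medium. The cause was not tested. Paralog shares by raw counts moved beyond the spread for 14 of 27 genes. Depth limits RpL37-2 and RpL22-like, which had 0 or 1 counts in several libraries.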
